A study of Homo sapiens with 12 samples.

Results

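MKN74, an established human gastric adenocarcinoma line, was sequenced as 1 control RNA library and 1 library of cells overexpressing ONECUT2. The members described here are all genes with a symbol and a mean level of at least 1 CPM over this pair of libraries (CPM, the read count scaled by library size), which 11914 of 13091 genes met, while 1177 lay below. Next to the limit, MRVI1 was inside at 0.431 CPM in the control and 1.57 CPM with overexpression, and SNORD104 outside at 0.646 and 1.35 CPM. Levels are given in CPM. A change is the overexpression value minus the control value of log2(CPM + 1). Libraries were grouped by their titles and descriptions. The vector, the time since its introduction, whether the overexpressing cells are 1 clone, and how the control cells were handled remain not given in the sources used here. The series also holds the same pair of libraries from AGS, another established gastric cancer line, and chromatin immunoprecipitation samples that were not analysed here.

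ONECUT2 is a transcription factor of the ONECUT family, whose members carry a cut domain beside a homeodomain and act in development of the liver, pancreas and nervous system. ACSL5, the gene named in the study's title, encodes a long-chain acyl-CoA synthetase, which activates fatty acids for use in lipids or for oxidation. Of the 388 genes at least 2-fold higher in overexpressing MKN74 cells 83 (21.4%) were on a list of interferon response genes. That list held 147 of all 11914 measured genes and was chosen with earlier results of these data known. In the interferon response, interferons bind surface receptors and the JAK kinases phosphorylate STAT proteins. These enter the nucleus and switch on genes whose products restrict viruses or present antigen, many of them through interferon-stimulated response elements. Cells also start this programme when sensors such as RIG-I (gene DDX58) and MDA5 (gene IFIH1) meet viral or misplaced RNA.

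The sequence just before the start site is shown for the genes at the head of the changes, since many of the higher interferon genes hold a short motif there. GAAANNGAA, the core of the interferon-stimulated response element, was searched on both strands in the 250 bases before the start in the RefSeq promoter table (GRCh38.p14), whose symbols matched 9553 of the 11914 measured genes. Each line below gives the 200 bases before the start in the direction of the gene, 5′ to 3′, with matches in capitals. The other strand's match reads as the reverse complement.
IFI44L, chr1:78620248-78620447, plus strand: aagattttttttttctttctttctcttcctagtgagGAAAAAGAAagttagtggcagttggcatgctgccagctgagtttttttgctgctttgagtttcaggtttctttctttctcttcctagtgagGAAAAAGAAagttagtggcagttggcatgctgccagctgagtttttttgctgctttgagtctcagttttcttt
IFI44, chr1:78649589-78649788, plus strand: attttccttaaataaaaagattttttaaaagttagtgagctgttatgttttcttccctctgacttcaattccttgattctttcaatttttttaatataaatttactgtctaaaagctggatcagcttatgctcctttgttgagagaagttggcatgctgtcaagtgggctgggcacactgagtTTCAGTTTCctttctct
RSAD2, chr2:6865685-6865884, plus strand: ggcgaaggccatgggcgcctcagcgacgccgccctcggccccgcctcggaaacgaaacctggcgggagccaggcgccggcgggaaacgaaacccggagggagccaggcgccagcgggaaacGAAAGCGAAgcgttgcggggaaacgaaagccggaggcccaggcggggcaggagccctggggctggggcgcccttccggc
ACSL5, chr10:112375068-112375267, plus strand: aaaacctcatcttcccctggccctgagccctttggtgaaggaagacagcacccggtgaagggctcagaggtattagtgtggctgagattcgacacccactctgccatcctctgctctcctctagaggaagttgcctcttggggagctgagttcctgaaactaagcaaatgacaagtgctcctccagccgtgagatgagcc
SLC7A7, chr14:22819792-22819991, minus strand: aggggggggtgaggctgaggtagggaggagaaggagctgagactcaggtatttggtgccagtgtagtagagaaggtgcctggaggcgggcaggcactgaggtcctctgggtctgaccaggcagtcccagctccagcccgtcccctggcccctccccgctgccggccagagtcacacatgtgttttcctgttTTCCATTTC
DSG3, chr18:31447541-31447740, plus strand: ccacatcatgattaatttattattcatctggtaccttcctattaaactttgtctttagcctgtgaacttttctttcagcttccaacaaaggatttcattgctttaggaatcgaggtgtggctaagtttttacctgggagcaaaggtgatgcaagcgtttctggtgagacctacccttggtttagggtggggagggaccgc

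IFI44L holds 2 matches, IFI44, RSAD2 and SLC7A7 hold 1 each, and neither ACSL5 nor DSG3 holds the motif in these letters. IFI44L, IFI44, RSAD2 and ACSL5 are among the largest increases, and SLC7A7 and DSG3 are the largest decreases. Among all 27195 promoters of the table, 7.06% held the motif, and among measured genes 5.32% did. Of the interferon response genes at least 2-fold higher in overexpressing MKN74 cells, 30 of 59 matched promoters (50.8%) held it. The share was 28.3% (13 of 46) for interferon response genes within 2-fold, 7.05% (16 of 227) for higher genes outside that list and 5.17% (6 of 116) for lower genes. The gamma-activated site TTCNNNGAA was in 16.9% of promoters of the higher interferon genes and 17.4% of those within 2-fold, beside 5.69% of measured genes. The ONECUT core ATCGAT was in 1.32% (3 of 227) of higher genes outside the interferon list and in 0.712% of measured genes, and ATCAAT in 3.52% (8 of 227) and 2.61%. These windows hold only the bases next to the start, and a match is a run of letters, not a measured binding site.

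The listed genes held 36097456 recovered reads in the control and 38110453 with overexpression. The library sizes implied by the CPM values were 41797828 and 45849254 reads, so 1 read was worth 0.0239 and 0.0218 CPM. A level of 0 allows up to 3 reads, or 0.0718 and 0.0654 CPM. With 1 library per side there is no replicate check, no p-value can be given, and each difference describes these 2 libraries. Ratios of CPM carry exact conditional binomial (Clopper-Pearson) intervals at 95%, which cover counting error only. In bulk RNA, fewer cells expressing a gene and less of its RNA per cell cannot be told apart.

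ONECUT2 itself checked the labels: it went from 5.14 CPM (215 reads) to 57.6 CPM (2640 reads), which is a change of 3.25, at a ratio of 11.2 (interval 9.74 to 12.9). Whether reads of the introduced copy are part of that value remains not given in the sources used here. ACSL5 was near the lower end of detection in the control, at 23 reads, and reached 3295 reads with overexpression, or 0.550 and 71.9 CPM. Its ratio was 131 (86.9 to 206), and its change of 5.55 depends on the pseudocount because the control level is low. Of 15 measured acyl-CoA synthetase genes 2 were higher, against 3.26% of all genes. The other, beside ACSL5, was ACSM3, a medium-chain synthetase, at 0.407 and 7.85 CPM. The rest lay between -0.43 for SLC27A2 and AACS and 0.60 for ACSL4, so ACSL5 stood far from its relatives.

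At least 2-fold higher with overexpression were 388 genes (3.26% of those measured), and at least 2-fold lower were 161 (1.35%). Of the 388 higher genes 142 were under 1 CPM in the control, so these met the level limit only through the overexpression library. Among all measured genes 264 were under 1 CPM in the control. Of the 161 lower genes 18 were under 1 CPM with overexpression. The median change was -0.020, and 88.9% of genes lay within 1.5-fold. The excess of higher genes grew with size, with 130 higher and 14 lower at 4-fold, 61 and 0 at 8-fold, and 24 and 0 at 16-fold. The summed level of the higher genes went from 4563 to 21143 CPM and that of the lower genes from 14708 to 5447 CPM. The share called higher was 8.16% among genes with a mean of 1 to 5 CPM and 1.68% from 100 CPM up, and the share called lower 2.14% and 0.711%.

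**Figure D1:**
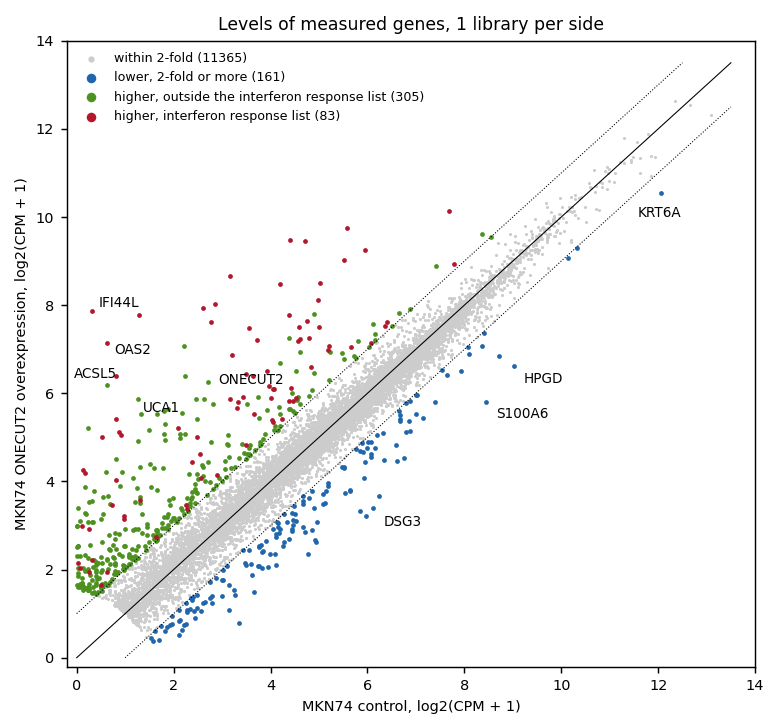
Level of each measured gene in the control (x axis) and in ONECUT2 overexpression (y axis), both as log2(CPM + 1), with 1 point per gene; the solid line marks equal levels and the dotted lines 2-fold. The 83 higher interferon response genes and the 305 other higher genes reach farther from the line than the 161 lower genes, and IFI44L, at 0.239 and 232 CPM, lies farthest.

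The interferon response list was the list with the most higher genes. Of its 195 genes 165 were listed and 147 measured, and 83 of those were at least 2-fold higher against a background of 3.26%, with 0 lower. Their median change was 1.25, beside -0.020 over all genes, and their summed level went from 4485 to 16001 CPM. The members and lists were chosen with earlier results of these data known, so these counts describe the list and are not independent evidence of it. In AGS, 11 of 137 measured members were at least 2-fold higher and 1 lower, against 4.19% and 0.728% of all genes measured there, with a median of 0.12.

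The 1 listed ligand gene was low and receptor genes lay within 2-fold. Of 7 interferon ligand genes only IFNL1, a type III interferon gene, was listed, so the levels of the others are not known. IFNL1 had 5 reads in the control and 50 with overexpression (0.120 and 1.09 CPM, ratio 9.12, interval 3.66 to 29.3). Its mean was under the 1 CPM limit. The 6 receptor chains were all within 2-fold, with a median change of 0.08. IFNAR1, which binds type I interferons together with IFNAR2, was at 101 and 95.7 CPM, and IFNAR2 was at 17.4 and 19.7 CPM. IFNLR1, the type III receptor chain, was at 19.3 and 17.6 CPM.

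Downstream of the receptors, 4 of 12 measured signalling genes were at least 2-fold higher. STAT2 went from 21.0 to 56.1 CPM and IRF9, a transcription factor of the same family as IRF7, from 20.4 to 68.1 CPM. IRF7, which induces type I interferon genes, went from 14.6 to 70.6 CPM. The kinase JAK1 was at 62.7 CPM in both libraries, TYK2 at 23.1 and 31.2, STAT3 at 40.5 and 42.2 and IRF3 at 39.4 and 43.5 CPM. IRF1 lay just inside 2-fold, at 6.24 and 13.3 CPM, a change of 0.98. Of 8 feedback inhibitors 2 were higher, USP18, which removes ISG15 and dampens receptor signalling, at 27.5 and 95.7 CPM, and SOCS2 at 2.13 and 5.67 CPM, while SOCS1 was at 2.03 and 3.99 and SOCS3 at 2.99 and 5.95 CPM.

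Among the nucleic acid sensors and adaptors 9 of 18 were higher, and the cytosolic RNA sensors were among them. DDX58 went from 30.5 to 277 CPM (ratio 9.06, 8.56 to 9.61), IFIH1 from 31.1 to 180 CPM, and DHX58, the third member of that helicase family, from 0.981 to 7.87 CPM. IFI16, a DNA sensor, went from 5 reads to 790 reads, or 0.120 to 17.2 CPM. EIF2AK2, the RNA-activated kinase PKR, went from 81.6 to 183 CPM. The adaptor of the RNA sensors, MAVS, was at 96.8 and 157 CPM, and the DNA sensor and its adaptor, MB21D1 and TMEM173, were at 23 and 24.8 CPM and 20.8 and 27.8 CPM, each within 2-fold.

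The genes that act on viral RNA had large changes. All 4 OAS family genes, which encode sensors of viral RNA and their relatives, were higher: OAS1 (5.12 to 245 CPM), OAS2 (0.550 to 139), OAS3 (61.2 to 612) and OASL (0.646 to 10.1). Of the IFIT and IFITM genes 7 of 8 were higher, with a median change of 3.59. IFIT1, which binds foreign RNA ends, went from 20 to 715 CPM, IFIT3 from 5.79 to 195, IFIT2 from 19.8 to 219 and IFIT5 from 8.18 to 115 CPM. IFITM1, a membrane protein that hinders viral entry, went from 7.97 to 406 CPM and IFITM3 from 44.5 to 521 CPM. IFITM1, IFITM2 and IFITM3 are close copies, so how the counting shared reads between them is uncertain.

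Antiviral effectors made up the largest role, with 39 of 64 higher and a median change of 1.36. IFI44L had the largest change of any measured gene, 7.55, from 10 reads to 10620 reads (0.239 to 232 CPM; ratio 968, 526 to 2020), and its neighbour IFI44 went from 1.44 to 219 CPM. RSAD2, the viperin gene, went from 0.766 to 82.4 CPM, and CMPK2, a mitochondrial nucleotide kinase beside it, from 0.431 to 31.3 CPM. BST2, the tetherin gene, went from 17.4 to 359 CPM, IFI6 from 25.2 to 706, IFI27 from 47.0 to 865 and LGALS3BP, a secreted glycoprotein, from 6.27 to 261 CPM. MX2, a dynamin-like GTPase that restricts retroviruses, went from 0.766 to 15.4 CPM, and MX1, its influenza-restricting relative, was also at least 2-fold higher but at low levels, 0.407 and 2.12 CPM. The other 25 effectors did not pass 2-fold, such as the RNA helicase MOV10 at 147 and 169 CPM, CASP4 at 101 and 98.7 and APOBEC3C at 33.8 and 26.0 CPM. APOBEC3G, of the same family as APOBEC3C, went from 4.81 to 23.7 CPM.

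ISG15, a ubiquitin-like modifier, went from 31.3 to 359 CPM, and it was 1 of the 10 higher genes among 11 measured genes of ISG15 conjugation and the PARP family. UBE2L6, the conjugating enzyme, went from 3.23 to 36.2 CPM and HERC5, the ligase, from 10.8 to 178 CPM. Among the ADP-ribosyltransferases PARP10 went from 0.885 to 32.0 CPM, PARP14 from 26.0 to 197, PARP12 from 11.5 to 82.4 and PARP9 from 23.3 to 149 CPM, with PARP9's partner DTX3L from 26.6 to 152 CPM. For class I antigen presentation 8 of 15 genes were higher, by smaller amounts. B2M, the shared light chain, went from 219 to 488 CPM, HLA-B from 15.6 to 67.5 and HLA-C from 49.5 to 131 CPM, and reads of these polymorphic, similar genes may be shared between them. TAP1, a subunit of the peptide transporter, went from 4.23 to 20.6 CPM, while TAP2 was at 76.2 and 104 CPM and TAPBP at 33.3 and 47.5 CPM. The immunoproteasome subunits PSMB8 and PSMB9 stayed below the limit of measurement, at 0 and 7 reads and at 6 and 67 reads, and PSMB10 was at 27.4 and 30.8 CPM.

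**Figure D2:**
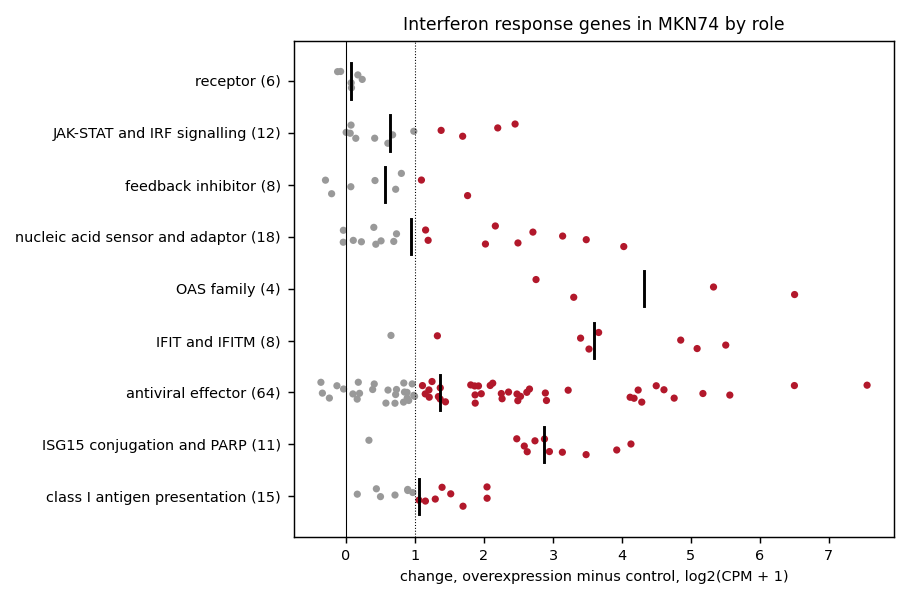
Change of each measured interferon response gene in MKN74 (x axis, difference of log2(CPM + 1)), in rows by role with the number plotted; black bars are medians, the dotted line is 2-fold and red points are at or past it. Receptors lie around a median of 0.08, while the IFIT and IFITM row has a median of 3.59 and the 4 OAS genes are all past 2-fold.

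The summed level of each antiviral and antigen presentation role in the MKN74 control lay below that of the same genes in the AGS control, with 1 library each. The measured IFIT and IFITM genes summed to 110 CPM in the MKN74 control and 2179 CPM with overexpression, and to 631 and 930 CPM in AGS. The class I genes summed to 660 and 1359 CPM in MKN74 and to 2499 and 3310 CPM in AGS, so there the overexpression library stayed under the AGS control.

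Outside the interferon list 305 genes were at least 2-fold higher, 2.59% of the 11767 measured there. Of 21 drug and bile acid transporters 2 were higher and 2 lower, and of 27 lipid handling genes 2 were higher and 1 lower. Over all genes 3.26% were higher and 1.35% lower. The genes below are given singly. PHYHIPL had the largest change after ACSL5, from 7 reads to 1642 reads (0.167 to 35.8 CPM; change 4.98). PPM1H, a protein phosphatase, went from 3.66 to 133 CPM, a ratio of 36.4 (31.0 to 43.0), and UCA1, a long noncoding RNA first described in bladder cancer, from 1.39 to 57.4 CPM. ABCC2, which exports organic anions into bile, went from 2.70 to 48.9 CPM, SLC22A11, an organic anion transporter, from 0.287 to 12.7 CPM, and SLC40A1, the iron exporter ferroportin, from 2.51 to 38.7 CPM. APOE, a lipid carrier, went from 4.47 to 57.4 CPM. GDF15, a stress-induced cytokine, went from 5.50 to 75.1 CPM, and the death receptor FAS from 1.41 to 29.1 CPM.

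The transcription factor lists had medians near 0. Of 34 ETS and KLF factors 3 were higher and 1 lower (median 0.01), and of 19 endoderm and gut factors 2 were higher and 1 lower (median -0.07). Over all genes 3.26% were higher and 1.35% lower. Single regulators were among the larger increases. IGF2BP1, a fetal messenger RNA-binding protein, went from 3.71 to 83.6 CPM (ratio 22.6, 19.2 to 26.7). HMGA2, a chromatin protein of fetal tissue, went from 3.49 to 46.2 CPM, MSX1, a homeobox factor, from 6.01 to 53.3 CPM and KHDRBS3, an RNA-binding splicing regulator, from 1.79 to 34.7 CPM. EHF, an epithelial ETS factor, went from 3.71 to 32.5 CPM, and its relative ELF3 from 13.8 to 32.8 CPM. STAT6, which relays interleukin signals, went from 4.59 to 41.5 CPM. SOX9, a factor of gut progenitors, went the other way, from 111 to 34.1 CPM. HMGA2, MSX1, KHDRBS3 and STAT6 were named after their values were seen.

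Of the 4 ID genes, inhibitors of helix-loop-helix transcription factors and targets of BMP signalling, 3 were at least 2-fold higher. ID4 went from 2.46 to 47.8 CPM (ratio 19.4, 15.9 to 23.9), ID2 from 28.8 to 221 CPM (7.66, 7.22 to 8.14) and ID3 from 28.9 to 87.7 CPM (3.03, 2.84 to 3.24). ID1 was at 149 and 256 CPM, a change of 0.78. The ligand gene BMP4 went from 128 to 61.6 CPM, while BMP7, another ligand gene, was at 403 and 563 CPM, a change of 0.48. GDF15, the 3 higher ID genes and BMP4 made 4 higher and 1 lower of 38 measured genes of the TGF-beta family list, whose median was -0.09. Of the WNT list 5 of 34 were higher and 3 lower, against 3.26% and 1.35% of all genes. LGR4, an R-spondin receptor, went from 19.9 to 153 CPM, and FZD7, a WNT receptor, from 17.4 to 103 CPM, while WNT11, a ligand of the noncanonical branch, went from 106 to 22 CPM. CCND2, the cyclin D2 gene, went from 0.191 to 10.6 CPM, while CCND1 was at 457 and 407 CPM.

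**Figure D3:**
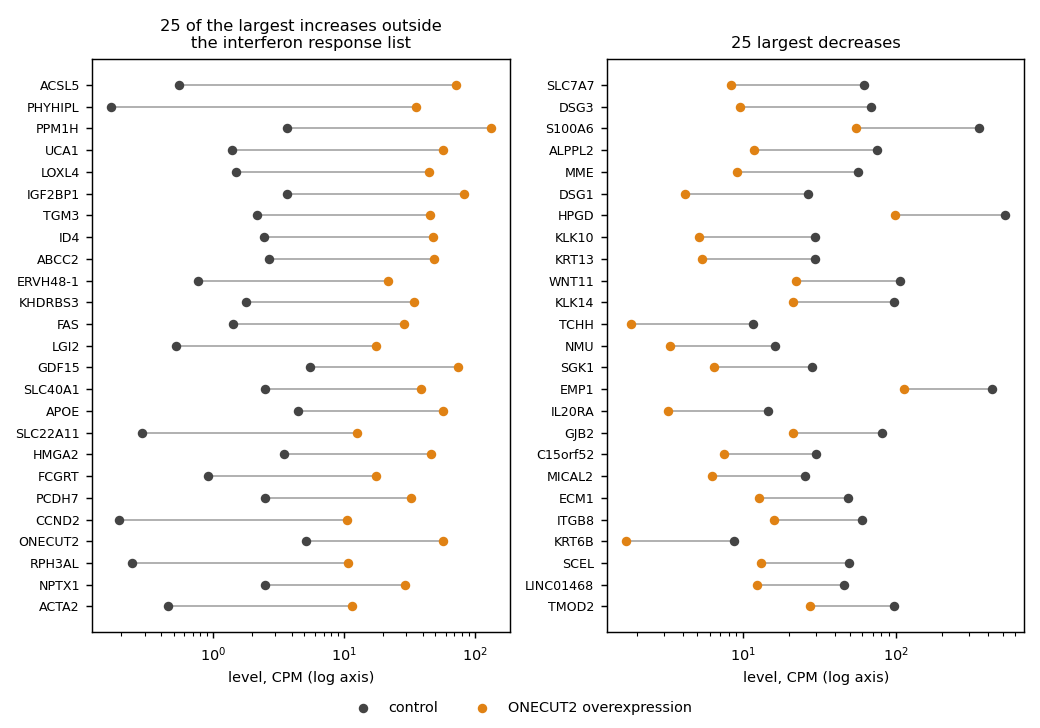
Level in the control (dark) and with ONECUT2 overexpression (orange), in CPM on a log axis, for 25 of the largest increases outside the interferon response list and the 25 largest decreases at a mean level of 5 CPM or more, ordered by change. PHYHIPL goes from 0.167 to 35.8 CPM among the increases and HPGD from 518 to 98.0 CPM among the decreases.

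Some genes of stratified squamous epithelium were lower. Of 26 measured desmosome and cornified envelope genes 6 were lower and 0 higher, with a median of -0.36, against 1.35% of all genes called lower. DSG3 and DSG1, desmosomal cadherins that lie side by side, went from 68.7 to 9.55 CPM (ratio 0.139, 0.125 to 0.154) and from 26.3 to 4.12 CPM. IVL, SPRR1B, SPRR2D and SCEL, parts of or precursors to the cornified envelope, were the other 4, for example SCEL at 49.0 and 13.1 CPM. TGM3, a transglutaminase that cross-links that envelope, was higher, at 2.15 and 45.4 CPM. TP63, a transcription factor that directs stratified epithelium, was also higher, from 13 to 99 reads (0.311 to 2.16 CPM). Of 22 keratin and filament genes 4 were lower and 2 higher, with a median of -0.35. KRT6A went from 4291 to 1495 CPM and KRT13 from 29.3 to 5.37 CPM, while KRT5, a basal keratin, went from 169 to 475 CPM and KRT20, an intestinal keratin, from 0.407 to 3.84 CPM. KRT8 and KRT18, the keratin pair of simple epithelium, were at 8729 and 5109 CPM and at 3704 and 1956 CPM, within 2-fold. KRT6A, KRT6B and KRT6C are close copies, so the values of the low KRT6B and KRT6C may carry reads of KRT6A.

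Part of the kallikreins and a few S100 genes were lower as well, to be read against 1.35% of all genes lower and 3.26% higher. Of 21 kallikreins and other serine protease genes 7 were lower, 0 higher and 14 within 2-fold, with a median of -0.15 and a summed level of 1437 and 1440 CPM. KLK14, which takes part in skin shedding, went from 97.2 to 21.0 CPM, KLK10 from 29.5 to 5.15, KLK6 from 101 to 40.5 and KLK8 from 56.4 to 24.9 CPM. Of 23 S100 and annexin genes 3 were lower, 0 higher and 20 within 2-fold, with a median of -0.13. S100A6 went from 350 to 54.6 CPM (ratio 0.156, 0.149 to 0.163), S100A11 from 1274 to 627 CPM and S100A8 from 7.11 to 2.38 CPM. Others within 2-fold leaned both ways, with S100A10 at 845 and 457 CPM and ANXA1 at 837 and 1203 CPM. SERPINB5, the maspin gene, went from 243 to 89.6 CPM and was the lower one of 12 serpins.

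Enzymes, transporters and other single genes were also among the largest decreases. SLC7A7, a light chain of a cationic amino acid transporter, had the largest decrease, from 61.9 to 8.33 CPM (change -2.75, ratio 0.135, interval 0.121 to 0.150). ALPPL2 and ALPP, alkaline phosphatases of placental type and close copies, went from 74.4 to 11.8 CPM and from 18.2 to 4.75 CPM. MME, the peptidase neprilysin, went from 56.2 to 9.10 CPM, and HPGD, which inactivates prostaglandins, from 518 to 98.0 CPM (ratio 0.189, 0.183 to 0.195). ABCC3, an organic anion exporter of the basolateral side, went from 16.1 to 4.14 CPM, opposite to ABCC2. SLC39A8, a zinc and manganese importer, went from 116 to 34.1 CPM, EMP1, an epithelial membrane protein, from 421 to 113 CPM and GJB2, a connexin, from 80.6 to 21.2 CPM. NMU, a neuropeptide, SGK1, a kinase, and ITGB8, an integrin subunit, lay in the same range, with changes of -1.99, -1.97 and -1.84.

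**Figure D4:**
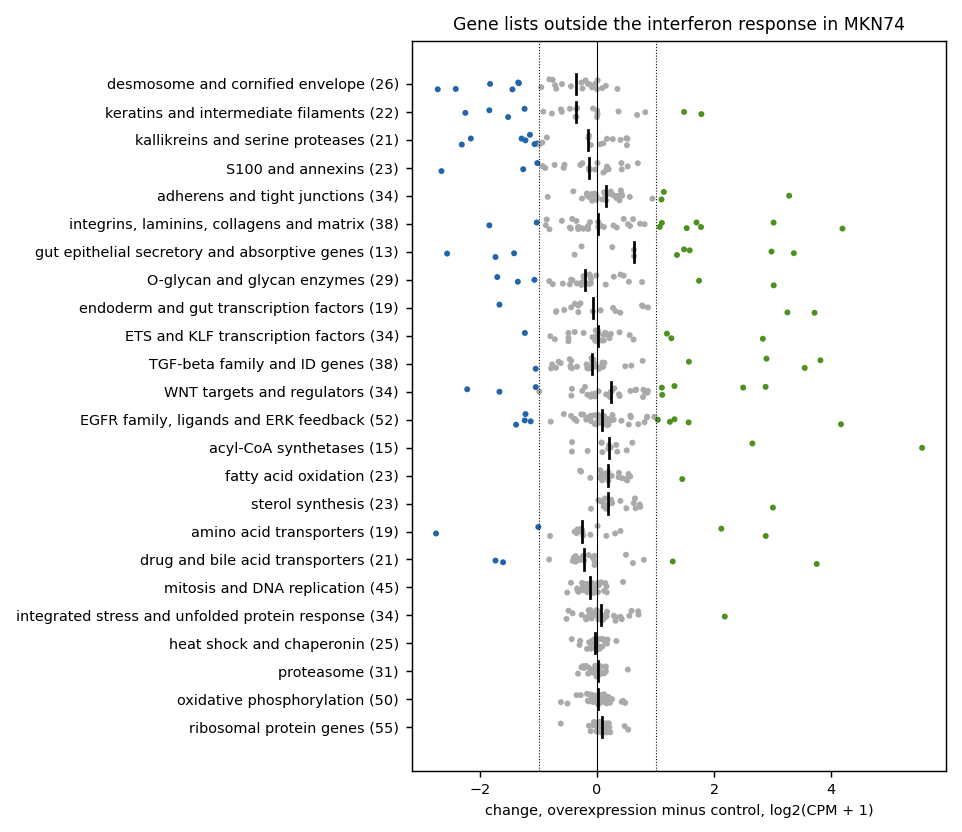
Change of each measured member (x axis, difference of log2(CPM + 1)) of 24 lists outside the interferon response, with the number measured; black bars are medians, dotted lines are 2-fold, green points are higher and blue points lower by at least that. The desmosome row has 6 lower and 0 higher genes, while the rows for heat shock, proteasome, oxidative phosphorylation, ribosome and mitosis hold no gene past 2-fold.

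Basic cell functions differed little, to be read against 3.26% of all genes higher and 1.35% lower. No gene passed 2-fold among 55 ribosomal protein genes (median 0.08), 50 genes of oxidative phosphorylation (0.02), 45 of mitosis and DNA replication (-0.12), 31 of the proteasome (0.01) and 28 AP-1 and early response genes (0.12). Among 34 genes of the integrated stress and unfolded protein response 1 was higher, PYCR1, an enzyme of proline synthesis, at 12.4 and 59.8 CPM. Fatty acid synthesis had none of 14, with a median of -0.23. Of 25 housekeeping genes 1 passed, B2M, which is also an interferon response gene.

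A set of 22 genes had at most 3 reads in the control and at least 2 CPM with overexpression, and 0 genes did the reverse. TMPRSS2, a membrane serine protease, went from 1 read to 437 reads (0.0239 to 9.53 CPM; ratio 398, 71.1 to 15771). LYZ, the lysozyme gene, VAV3, a guanine nucleotide exchange factor, and SLC12A3, a sodium chloride cotransporter, had 0 reads in the control. Against a floor of 3 control reads they were at least 96-fold (316 reads each for LYZ and VAV3) and at least 65-fold higher (214 reads). ALDH1A1, a retinal dehydrogenase, went from 1 read to 221 reads, and CUX2, a cut homeobox relative of ONECUT2, from 1 read to 219 reads. SLFN11, SLFN12 and CXCL10 were the 3 of the interferon list. LYZ and TMPRSS2 are well expressed in AGS, at 7661 and 29.5 CPM in its control. Of 45 genes with at least 50 CPM in the AGS control and at most 3 reads in the MKN74 control, 43 stayed under 1 CPM in the MKN74 overexpression library and 31 at or under 3 reads. The other 2 were LYZ, at 6.89 CPM, and GPC4, a glypican, at 2.03 CPM. The 45 were picked by their low MKN74 control reads, and the source of the LYZ and TMPRSS2 reads was not tested.

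Both libraries carried the epithelial markers. All 16 epithelial markers were detected in both, with sums of 15225 and 10352 CPM. Of these 2 were at least 2-fold higher and 0 lower, beside 3.26% and 1.35% of all genes. Of 102 genes with at least 20 CPM in the MKN74 control and at most 3 reads in the AGS control, 101 were at or above 5 CPM with overexpression. That count was largely set by the choice of genes, since only 14 of all measured genes were at least 4-fold lower. The median change of the 102 was -0.21, with 17 (16.7%) at least 2-fold lower and 3 at least 2-fold higher. Of all genes 1.35% were lower, and 0.937% of those with a mean of 20 to 100 CPM. Picking genes by a high control level also favours decreases. Markers of other cell types were few and low. Of 11 fibroblast markers 4 were listed, summing to 8.90 and 28.3 CPM, with ACTA2, the smooth muscle actin, going from 0.455 to 11.5 CPM and PDGFRA at or under 3 reads in both libraries. Of 15 immune markers LYZ, CD68 and CSF1R were listed, summing to 8.57 and 13.7 CPM, and CSF1R was at or under 3 reads in both. Of the others 2 of 8 endothelial, 2 of 9 neuroendocrine and 0 of 4 erythroid markers were listed, the first summing to 13.6 and 26.0 CPM and the neuroendocrine ones to 35.6 and 14.6 CPM. Their part in the results was not tested.

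Some called genes were neighbours on a chromosome. In RefSeq order, the gene after a higher gene was itself higher in 58 of 386 cases (15%) and lower in 8 (2.07%), and the gene after a lower gene was lower in 16 of 159 cases (10.1%) and higher in 3 (1.89%), against 3.26% and 1.35% of all genes. There were 46 runs of 2 or more adjacent measured genes at least 2-fold higher (104 genes) and 13 runs of lower genes (29 genes). Of the 46 higher runs 22 held an interferon response gene. The list held 21.4% of the 388 higher genes and each run has 2 or more genes. A share of runs above 21.4% is therefore no sign of clustering by itself. Among the 22 were IFIT2-IFIT3-IFIT1-IFIT5 on chromosome 10 and OAS1-OAS3-OAS2 on chromosome 12. Another was CMPK2-RSAD2-RNF144A-ID2 on chromosome 2, where ID2 lies beside interferon genes. Other higher runs were ACTA2-FAS, with changes of 3.10 and 3.64, and SLC22A11-NRXN2-RASGRP2. The lower runs included gene families of surface epithelium: KLK8-KLK10-KLK11-KLK12, KRT6B-KRT6C-KRT6A, DSG1-DSG3, ALPP-ALPPL2, GJB2-GJB6, S100A8-S100A6 and SPRR1B-SPRR2D. Where adjacent genes overlap or are close copies, shared reads can join them, with the strand setting of the counting not given in the sources used here.

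Beyond such runs, whole stretches of MKN74 genes leaned one way by small amounts. The median change of 25 neighbouring genes ran from -0.65 on chromosome 1 (GEMIN8P4 to F3) to 0.60 on chromosome 20 (TGM3 to PANK2) over 11263 windows, and from -0.37 to 0.41 over 10144 windows in AGS. Around windows at or past 0.4 in size, stretches were joined, a rule chosen after the values were seen. It gave 10 stretches with 452 genes, 4 leaning up and 6 down. In them 40 genes passed 2-fold in the direction of their stretch and 5 in the other, beside 3.26% higher and 1.35% lower of all genes. Of the 452 genes 3 were interferon response genes, beside 147 of all 11914. Over all measured genes, 5580 of 11914 were above 0. The stretches were picked by these same changes, so the counts describe them and are not independent evidence of a lean. On chromosome 20, 58 of 64 genes from C20orf96 to MKKS were above 0 (median 0.45), on chromosome 9, 56 of 60 from MIR600HG to SET (0.41), on chromosome 6, 36 of 43 from RNF144B to ZKSCAN8 (0.33), and on chromosome 21, 21 of 26 from TEKT4P2 to TCP10L (0.38). On chromosome 12, 65 of 70 genes from TMEM120B to GOLGA3 were below 0 (median -0.43), on chromosome 13, 31 of 36 from MPHOSPH8 to LNX2 (-0.39), on chromosome 22, 34 of 44 from DGCR11 to TOP3B (-0.33), and on chromosome 7, 27 of 30 from ZNF117 to ABHD11 (-0.33). Chromosome 1 held 2 lower stretches, 36 of 45 genes from CCBL2 to DBT (-0.37) and 23 of 34 from RFX5 to SLC27A3 (-0.14). In AGS the medians of these 10 stretches lay between -0.18 and 0.13. Several genes described above lie in these stretches, namely TGM3 and MAVS on chromosome 20, ID4 on chromosome 6, GJB2 and GJB6 on chromosome 13, AACS on chromosome 12 and IVL, SPRR1B, SPRR2D, S100A6, S100A8, S100A10 and S100A11 in the second stretch of chromosome 1. The part of the stretches in their changes was not tested, nor was whether the overexpressing and control cells differ in DNA copy number.

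**Figure D5:**
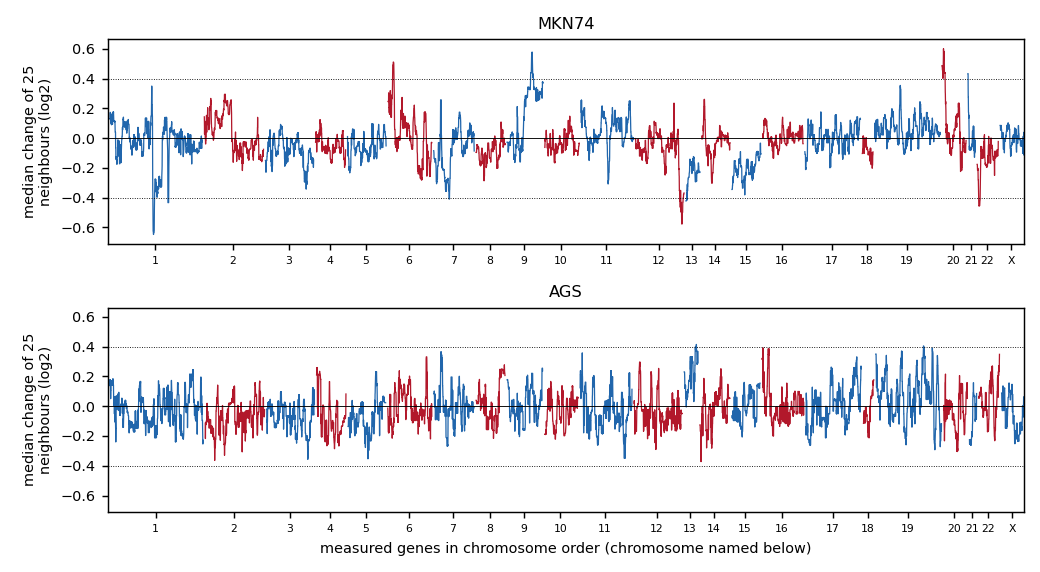
Median change of 25 adjacent measured genes (y axis, difference of log2(CPM + 1)) along the genes in chromosome order (x axis), for MKN74 (top) and AGS (bottom), with colours alternating by chromosome and dotted lines at 0.4 in size. MKN74 windows reach -0.65 and 0.60. The 10 stretches joined around windows at or past 0.4 in size lie on chromosomes 1, 6, 7, 9, 12, 13, 20, 21 and 22. AGS windows run from -0.37 to 0.41, so they also pass 0.4 at the upper end.

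Set beside the same comparison in AGS, whose libraries are separate, most MKN74 called genes lay within 2-fold there. Of 10766 genes measured in both lines, 3.33% were higher and 0.464% lower in AGS. Of the 254 MKN74-higher genes among them, 37 were higher in AGS (14.6%, and 10.3% of the 359 higher there), 5 were lower (1.97%) and 212 within 2-fold, with a median AGS change of 0.26. Of the 99 MKN74-lower genes, 25 were higher in AGS (25.3%, and 6.96% of the 359), 1 was lower (1.01%) and 73 were within 2-fold, with a median of 0.40. The ones higher in both lines included ACSL5 (0.550 to 71.9 CPM in MKN74, 8.92 to 45.9 CPM in AGS), ONECUT2, EHF (4.32 to 27.1 CPM in AGS), GCNT3, a mucin glycosylation enzyme (1.46 to 18.9 and 13.1 to 105 CPM), and GDF15 (132 to 562 CPM in AGS). The gene lower in both was SLC9A2, a sodium-proton exchanger, at 13.4 and 4.38 CPM in MKN74 and 59.1 and 28.0 CPM in AGS. With 1 library per group the difference between the lines has no test.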

How the data were processed

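RNA libraries of MKN74 and AGS were analysed, 4 in all. The labels also describe 8 chromatin immunoprecipitation samples, not analysed here. Per the labels' protocols, a TruSeq RNA kit was used. The build hg19 and the tools STAR 2.5.1, edgeR 3.12.1, Bowtie2 2.1.0, HOMER 4.9.1 and CASAVA 1.7 stand in the submitters' processing notes without roles. The counter, its annotation and strand setting remain not given in the sources used here. The authors deposited a table of log2 values with 13109 rows. The values themselves are log2(CPM + 1): every value is a whole multiple of the worth of 1 read, to within 2.6e-08 of a read, so reads were recovered, 86.4% and 83.1% of the implied MKN74 library sizes. A row for each of 18 dates was left out.

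The change is the difference of the deposited log2 values, counted at 2-fold among genes at a mean level of 1 CPM or more. It understates the change of low genes. No test across genes was possible with 1 library per side. The members, the 53 gene lists and the 6 marker lists were chosen with earlier results of these data known. Genes named were ONECUT2 and ACSL5, the 30 largest changes each way at a mean level of 5 CPM or more, the 10 largest CPM gains and losses, genes with at most 3 reads on 1 side and at least 2 CPM on the other, runs of neighbours, and in each list the members past 2-fold, 4 further members by change and 2 by level. Further interferon and cell-function genes, and the largest increases outside the interferon list, were named after their values were seen. A few genes are not reported here by name. Of the list symbols 6 were matched through a synonym. Gene order and promoters are from RefSeq tables of GRCh38.p14, while the files use hg19. The interval and counting steps were tested on simulated data. Computation used scipy 1.17.1, pandas 2.3.3, numpy 2.4.6 and matplotlib 3.10.9 under Python 3.11.15. Alternatives were other pseudocounts, filters, scalings and sizes of change.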

Additional observations from a re-analysis of the deposited data

Results flagged for a closer look

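In 23 genes covered by the naming rules the change passed 2-fold in both lines in opposite directions, each with 1 library per side. Over all genes measured in both lines, 25 MKN74-lower genes were higher in AGS and 5 MKN74-higher genes were lower. The difference between the lines was not tested. Values are changes in log2(CPM + 1), MKN74 first and AGS second. Of the 23 named genes, 18 were lower in MKN74 and higher in AGS. Epithelial keratins, envelope and junction genes were KRT6A (-1.52 and 1.55), KRT13 (-2.25 and 1.38), SCEL (-1.83 and 1.43), COL17A1 (-1.03 and 2.28), ECM1 (-1.86 and 1.40) and EMP1 (-1.89 and 2.01). Kallikreins were KLK6 (-1.29 and 1.35), KLK8 (-1.15 and 1.88) and KLK14 (-2.16 and 1.49). Enzymes and transporters were HPGD (-2.39 and 2.01), ALPP (-1.74 and 1.02), ALPPL2 (-2.56 and 1.39), ABCC3 (-1.74 and 1.78) and SLC7A11 (-1.01 and 2.82). The others were ABLIM3 (-1.28 and 1.04), ADIRF (-1.75 and 1.66), LINC01133 (-2.07 and 1.47) and PHLDA1 (-1.14 and 1.35). The opposite pattern, higher in MKN74 and lower in AGS, was seen in 5 genes, the helix-loop-helix inhibitors ID2 (2.90 and -1.65) and ID3 (1.57 and -2.41), the matrix protein gene THBS1 (1.70 and -2.07), the protocadherin gene PCDH7 (3.28 and -1.60) and the collagenase gene MMP1 (1.10 and -1.03). Several of these start low in 1 line. KRT6A, for example, was at 4291 CPM in the MKN74 control and at 1.56 CPM in the AGS control.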

How the results depend on the processing

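With 1 library per side, no replicate could be left out. No paired analysis was possible because each group has 1 library and no replicate number to pair. The ONECUT2 change was 3.46 with a pseudocount of 0.1, and the ACSL5 change was 4.86 with a pseudocount of 2 and 6.79 with 0.1; both are by construction of the scale. At a mean of at least 5 CPM, where fewer genes are tested, 228 genes were higher, 156 of them outside the interferon list. At 1.5-fold 787 were higher, 531 lower and 679 higher outside the interferon list. At 4-fold the numbers were 130, 14 and 75, with 55 interferon response genes. The median of the immune markers, 1.35 over 2 measured genes as reported, was -0.10 with no filter and -0.29 at 5 CPM; the cause is the change in members. Over the other alternatives the counts stayed within 1.5 times, from 286 (pseudocount of 2) to 494 (pseudocount of 0.1) higher genes and from 119 (mean of at least 5 CPM) to 230 lower genes, and 72 to 108 interferon response genes were higher. Of the called genes 70.7% were higher as reported, and over the scalings 63.4% (quantile normalization) to 75.5% (CPM over the listed rows without the interferon response list). The gut epithelial list median of 0.63 was -0.90 at 5 CPM, and other list medians that changed sign moved to between -0.17 and 0.18. Of 310 named genes past 2-fold, 55 lay inside it at pseudocount 2, 35 after quantile normalization and at most 9 with any other scaling, and no sign reversed. The depth leaves low genes least certain.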

Other observations

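Smaller lists outside the interferon response held few called genes each, to be read against 3.26% of all genes higher and 1.35% lower. Of 31 measured xenobiotic and retinoid genes 5 were higher and 0 lower, among them CRABP2, which carries retinoic acid to the nucleus, at 89.9 and 184 CPM, and DHRS2, a short-chain dehydrogenase, at 22.2 and 90.1 CPM. Of 17 Notch pathway genes 2 were higher, the receptor gene NOTCH1 at 17.1 and 50.7 CPM and its target NRARP at 10.4 and 23.7 CPM, and the list median was 0.51. Among glycan enzymes GCNT3 was higher, while ST3GAL1, a sialyltransferase, was lower at 141 and 42.6 CPM and FUT2, the secretor fucosyltransferase, at 5.07 and 1.37 CPM. Of 27 chromatin and DNA methylation genes 1 was higher, a share near that of all genes, the DNA methyltransferase DNMT3B, at 54.7 and 145 CPM, while DNMT1 was at 246 and 224 CPM. In the matrix list 7 of 38 were higher and 2 lower, with LOXL4, a collagen cross-linking enzyme, at 1.51 and 44.9 CPM and COL12A1 at 0.574 and 11.7 CPM beside COL17A1, a hemidesmosome collagen, at 339 and 165 CPM.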
